A study of Mus musculus with 10 samples.

Results

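The replication-dependent histone genes make the bulk of the core histones on which new DNA is wound, and their mRNA was measured here in the bone marrow of mice that drank α-ketoglutarate (α-KG). They were taken by symbol, as every gene whose name had the form of a clustered H2A, H2B, H3 or H4 gene, in the older style (Hist1h2bq) or the newer one (H2bc4). The choice found 60 of the 55367 genes in the table, 19 of H2A, 17 of H2B, 12 of H3 and 12 of H4. It found 0 of the H1 class, because the linker histone genes carry other names (H1f1 to H1f5) in the table. Those are described apart from the members. Of the 60 members, 57 passed the filter on low counts and were tested. H2ac1 and H3c14 were listed at 0 in all 10 libraries, and Hist1h2al did not pass.

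Bulk RNA was sequenced from 5 libraries of bone marrow cells (labelled BMMC) of mice that drank water with 1% α-KG and from 5 libraries of mice that drank regular water. α-KG is a metabolite of the tricarboxylic acid cycle and a co-substrate of dioxygenases, histone demethylases among them. Ribosomal RNA was removed by RNase H digestion, so the libraries were not selected for poly(A) tails, per the labels' protocols. The sources used here give no genotype, strain, sex, age or duration of treatment, and no label says that each library stands for a mouse of its own, so p-values measure the spread between libraries.

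Core histones pack DNA into nucleosomes, each a tetramer of H3 and H4 flanked by dimers of H2A and H2B. The clustered genes that encode them are transcribed mainly in S phase, when DNA is copied, and most of their mRNAs end in a conserved stem-loop in place of a poly(A) tail. The stem-loop binding protein SLBP holds that structure through processing, translation and decay. Marrow is one of the tissues in which many cells divide.

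The stem-loop is the mark that sets these transcripts apart, so its versions are shown first. The pattern searched on the transcript strand was GG, 2 free bases, CTT, 1 free base, T, 1 free base, A, 2 free bases and GCC. It was found past the stop codon in 37 of the 60 members in GENCODE M21 on GRCm38. Among the 41 members whose annotated transcript runs at least 60 bases past the stop, 35 held it. Of 58734 other protein-coding transcripts, 0.272% held it anywhere in their sequence. That search was not limited to bases past the stop, counted transcripts and not genes, and took in histone genes outside the choice. The members used 7 versions of the stem-loop. One example of each follows with 5 bases on either side, and capitals mark the 16 bases of the stem and loop.
H2ac19, chr3:96239779-96239804, minus strand: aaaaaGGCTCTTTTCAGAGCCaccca
H4c4, chr13:23581945-23581970, plus strand: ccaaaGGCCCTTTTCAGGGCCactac
H3c6, chr13:23561898-23561923, minus strand: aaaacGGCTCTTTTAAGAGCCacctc
H4c14, chr3:96262934-96262959, minus strand: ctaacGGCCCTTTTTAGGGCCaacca
H4c1, chr13:23760795-23760820, minus strand: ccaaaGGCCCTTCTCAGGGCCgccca
H3c8, chr13:23535884-23535909, plus strand: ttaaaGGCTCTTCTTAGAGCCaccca
H2ac20, chr3:96220413-96220438, minus strand: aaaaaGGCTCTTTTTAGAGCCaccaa
The H2ac19 version was the commonest, with 21 members, and that of H4c4 came next with 6. The H3c6 version was held by 5 members and that of H4c14 by 2. The versions of H4c1, H3c8 and H2ac20 were held by 1 member each. The 36 tested members with a match had a median log2 fold change of -0.81, against -0.84 for all 57 tested members.

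The second set shows where transcription starts. Promoters of RefSeq (GRCm38.p6), running from 250 bases before to 50 bases after each start, were matched for 52 members. The motifs, searched on both strands and counted separately even where they overlapped, were the CCAAT box (CCAAT), the octamer bound by Oct factors (ATTTGCAT) and the TATA box (TATAAA). H2bc8 is shown for the histone octamer promoter, Hist1h2bq as a member that fell, and H3c6 and H4c8 for their classes. Capitals mark the matches, in either orientation.
H2bc8, chr13:23571150-23571449, plus strand: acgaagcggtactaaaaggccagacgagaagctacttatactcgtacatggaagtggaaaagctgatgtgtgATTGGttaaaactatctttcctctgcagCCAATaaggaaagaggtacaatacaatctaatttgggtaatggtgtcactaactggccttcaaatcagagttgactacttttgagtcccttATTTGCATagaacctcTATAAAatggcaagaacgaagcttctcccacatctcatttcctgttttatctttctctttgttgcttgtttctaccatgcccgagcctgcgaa
Hist1h2bq, chr13:21810150-21810449, minus strand: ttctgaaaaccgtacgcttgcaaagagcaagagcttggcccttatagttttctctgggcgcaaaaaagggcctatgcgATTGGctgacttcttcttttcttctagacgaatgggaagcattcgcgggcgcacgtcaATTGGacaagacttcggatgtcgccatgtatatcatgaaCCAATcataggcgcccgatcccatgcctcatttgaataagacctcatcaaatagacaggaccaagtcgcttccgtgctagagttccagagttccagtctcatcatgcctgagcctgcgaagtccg
H3c6, chr13:23562336-23562635, minus strand: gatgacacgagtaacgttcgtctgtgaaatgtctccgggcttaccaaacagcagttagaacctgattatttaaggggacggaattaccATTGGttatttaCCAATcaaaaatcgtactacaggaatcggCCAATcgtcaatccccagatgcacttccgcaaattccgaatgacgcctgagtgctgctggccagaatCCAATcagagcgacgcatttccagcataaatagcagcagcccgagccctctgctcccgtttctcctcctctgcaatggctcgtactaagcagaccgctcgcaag
H4c8, chr13:23530794-23531093, plus strand: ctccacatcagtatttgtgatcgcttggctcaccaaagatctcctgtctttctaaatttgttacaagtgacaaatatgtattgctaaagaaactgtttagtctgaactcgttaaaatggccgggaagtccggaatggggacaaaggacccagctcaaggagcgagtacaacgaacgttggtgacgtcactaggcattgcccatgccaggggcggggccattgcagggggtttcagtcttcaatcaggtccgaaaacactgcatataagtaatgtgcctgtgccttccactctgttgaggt
The CCAAT letters stood in 16 of 16 H2A, 15 of 15 H2B and 10 of 10 H3 promoters, but in 3 of 11 H4 promoters. They stood in 37.3% of the 32798 other promoters. The octamer was found in 6 of 16 H2A and 7 of 15 H2B promoters, in 0 of 10 H3 and 0 of 11 H4 promoters, and in 1.70% of the others. TATAAA was found in 11, 7, 4 and 8 promoters of H2A, H2B, H3 and H4, and in 13.5% of the others. The 12 tested H2A and H2B members with the octamer had a median log2 fold change of -0.91, and the 18 without it had a median of -0.92. A match is a description of the letters and shows no binding.

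The members lie in known clusters. The first Hist1 block on chromosome 13 (chr13:21715763-22043676) held 23 members, the second (chr13:23531050-23934851) held 26, and the Hist2 cluster (chr3:96219865-96270132) held 10. Hist1h2al lies apart at chr13:51202727-51203065 and, like H2ac14, is annotated as a pseudogene. Copies within a class are close to each other in sequence. Over the members, a median of 44.4% of the 100-base stretches of a transcript (1 per member, unspliced where there was one) also occurred in transcripts of other genes. All of them did so for 4 members, H2ac19, Hist1h2bq, Hist1h2br and H3c14. Of the members' table values, 91.3% were not whole numbers, against 10.3% over the whole table. Levels of single copies are therefore uncertain, and sums over a class depend less on how reads were divided. Levels are given as CPM, which is counts scaled to a common library size after TMM normalisation. They are not per length, so levels of different genes or classes are not ranked against each other. The exception is the choice of named members, the 4 with the highest mean CPM in each class.

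Library totals ran from 14291364 to 22490118 counts, and libraries of the same group differed beyond counting error (chi-square over its degrees of freedom 30.2 to 388 for a pair). Xist, transcribed from the inactive X chromosome, reached 258 to 785 CPM and the Y-linked Ddx3y 13.5 to 28.0 CPM in every library, so what animals a library holds is not known here. Among the α-KG libraries, the lowest was α-KG 1 in 56 of the 57 tested members, and α-KG 3 in the remaining 1. Among the water libraries, water 3 was lowest in 54 of 57 and water 5 highest in 50 of 57. Results below are given without these libraries where that matters.

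Histone mRNA was lower on average after α-KG in every class, but the groups overlapped and few single genes passed the test. Summed over the 60 members, the level was 3024, 8207, 4123, 7352 and 8902 CPM in α-KG 1 to 5. It was 11679, 9654, 6099, 10408 and 14059.7 CPM in water 1 to 5. The means were 6322 ± 2597 CPM with α-KG and 10379.9 ± 2919 CPM with water (SD, n = 5 each), a log2 ratio of -0.78. All but 1 of the water sums lay above the highest α-KG sum, and water 3 lay within the α-KG range. The log2 ratio was -0.96 to -0.55 with any 1 library left out. In bulk marrow, fewer cells that make histone mRNA and less of it per cell cannot be told apart.

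By class, H2A summed to 1807 ± 778 CPM with α-KG and 3273 ± 884 CPM with water, and H2B to 915 ± 351 CPM and 1786 ± 587 CPM (SD, n = 5 each). H3 summed to 2078 ± 913 CPM with α-KG and 3018 ± 800.0 CPM with water, and H4 to 1523 ± 584 CPM and 2302 ± 686 CPM. The ratio of the α-KG mean to the water mean was 0.552 for H2A, 0.512 for H2B, 0.688 for H3 and 0.662 for H4. In each class α-KG 1 and α-KG 3 were the lowest of the 10 libraries, and the groups overlapped through water 3, in H3 also through water 2 and water 4.

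**Figure D1:**
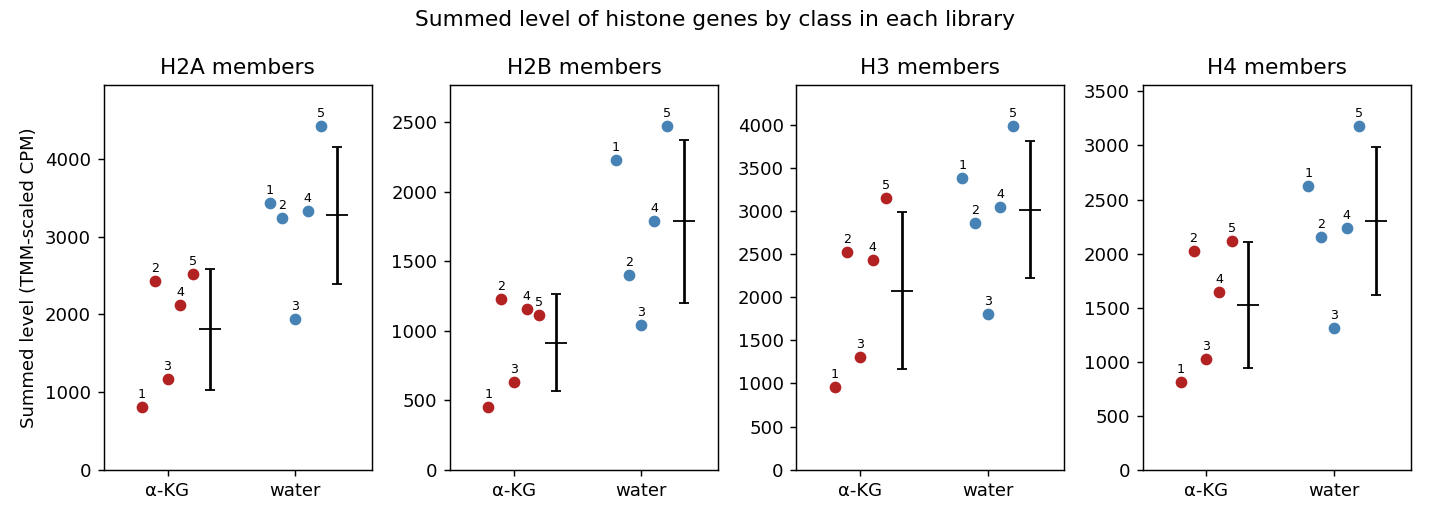
Summed TMM-scaled CPM of the members of each class (vertical axis, from 0) in each library, with α-KG left of water, library numbers beside the points, and bars showing mean ± SD. α-KG 1 and α-KG 3 lie lowest in every class, with H2B sums of 447 and 632 CPM, and water 3 is the lowest water library.

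In the fit across all 15126 genes (edgeR quasi-likelihood test, Benjamini-Hochberg adjustment, threshold 0.05), 52 genes were lower with α-KG (0.344% of those tested) and 361 higher (2.39%). Of the 57 members tested, 2 fell, H2bc4 and Hist1h2bq, and 0 rose. No stem-loop match was found in the annotated transcripts of either, and edgeR called 0 of the 36 tested members with a match. At an unadjusted p under 0.05, 0 of the 57 were higher, where 16.3% of all genes were. DESeq2 and limma voom called 0 of the 57 higher, and 6.07% and 1.52% of all genes. All 57 had a log2 fold change below 0, as had 48.3% of all genes tested. At an unadjusted p under 0.05, 37 were lower, where the share of all genes was 11.5%. The members' median was -0.84, that of all genes 0.02, and the range ran from -1.73 (H2bc1) to -0.31 (H2ac21). H2bc1 fell below the cutoff of the low-count filter in some libraries. Over the 55 members above that cutoff in every library, the range ran from -1.19 to -0.31. Members share sequence and the same libraries, so these counts do not stand for independent genes.

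H2bc4 encodes a core H2B, and its only transcript in GENCODE M21 is spliced (chr13:23684199-23692908, plus strand). Its level was 28.8, 62.8, 37.8, 58.0 and 56.5 CPM in α-KG 1 to 5 and 106, 80.7, 72.0, 105 and 126 CPM in water 1 to 5. The groups did not overlap. The means were 48.8 ± 14.7 CPM and 98.1 ± 21.8 CPM (SD, n = 5 each), a log2 fold change of -1.01 ± 0.23 (SE) with an edgeR adjusted p of 0.0396. Of its 100-base stretches, 25.4% occur in other genes.

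Hist1h2bq encodes another H2B copy, with spliced transcripts beside a short one (chr13:21806612-21810197, minus strand). It had 16.5, 34.6, 26.2, 22.5 and 19.7 CPM in α-KG 1 to 5, against 57.3, 48.6, 32.3, 50.9 and 59.3 CPM in water 1 to 5. Only α-KG 2 lay above the lowest water library, water 3. Its log2 fold change was -1.06 ± 0.21 (SE), with an edgeR adjusted p of 0.0278. All 100-base stretches of its short transcript occur in other genes, and its spliced ones were not compared, so how much of this count belongs to this copy is uncertain. The 5 members with a spliced transcript (Hist1h2bp, Hist1h2bq, Hist1h2br, H2bc6 and H2bc4) had log2 fold changes of -1.19 to -0.88 with a median of -1.02, near the H2B median of -0.96.

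The number of members that passed depended on the libraries and on the test. DESeq2 called 26 lower, 14 of H2B, 9 of H2A, 3 of H4 and 0 of H3, where it called 4.31% of all genes lower. Of the 36 tested members with a stem-loop match, DESeq2 called 15 lower. limma voom called 2 (0.284% of all genes), which were H2bc4 and Hist1h2bq. With α-KG 2 left out, edgeR called 17 members (6.97% of all genes), and with water 3 left out it called 9 (0.63%). Upper-quartile scaling gave 4 (0.661%), adding H2bc1 and H2ac7. With α-KG 1 left out edgeR called 2 (0.137%). With α-KG 3, 4 or 5 or water 1, 2, 4 or 5 left out, it called 0 members. In 4 of those 7 fits (without α-KG 4, water 1, water 2 or water 4) no gene at all was called, and without α-KG 3, α-KG 5 or water 5 the share of all genes called lower was 0.0194%, 0.103% and 0.11%. At an unadjusted p under 0.05, 28, 36 and 48 members were lower without α-KG 3, 4 and 5, where 7.24%, 9.56% and 13.5% of all genes were. Without water 1, 2, 4 and 5 it was 31, 33, 37 and 24 members, where it was 9.82%, 8.91%, 8.76% and 8.15% of all genes. All 57 members stayed below 0 with any 1 library left out, and the median ran from -0.99 without water 3 to -0.65 without α-KG 1.

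**Figure D2:**
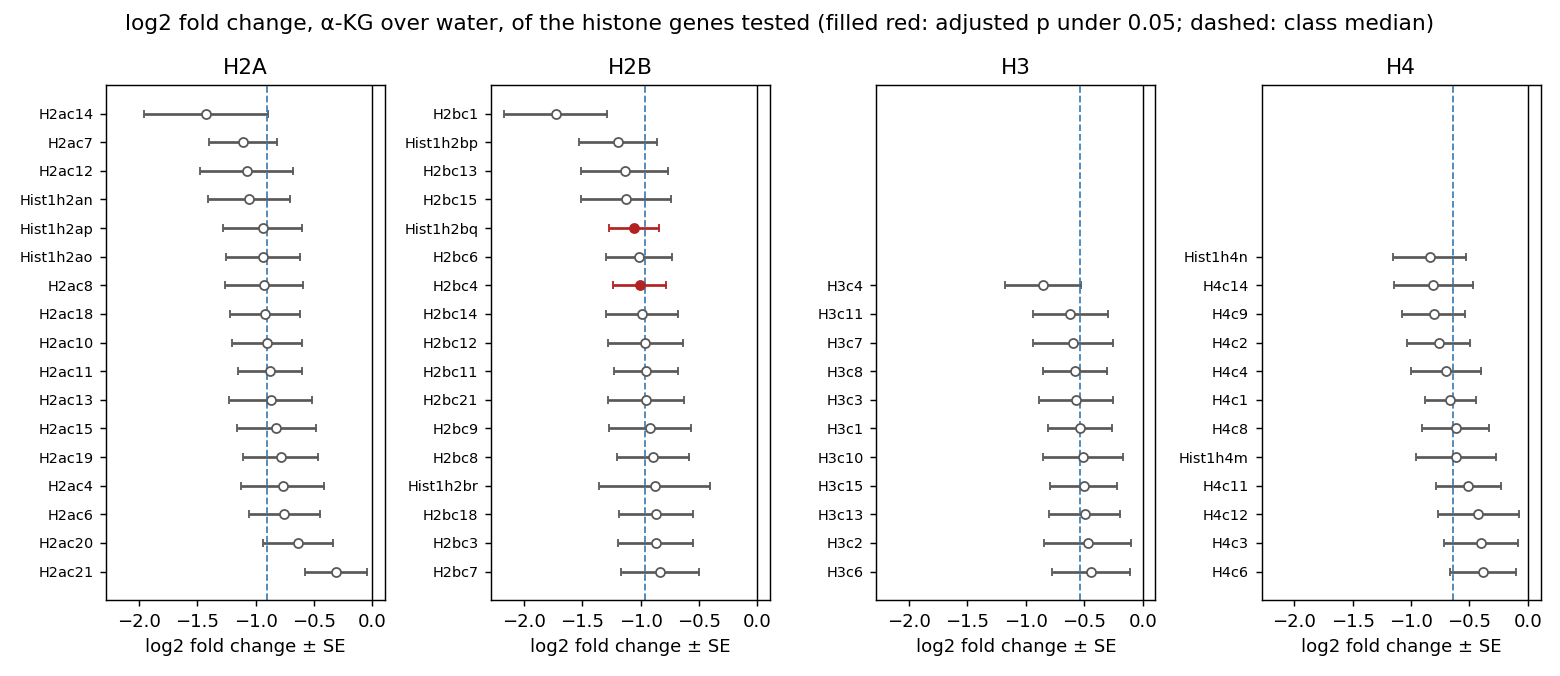
The log2 fold change of α-KG over water (horizontal axis, 0 marked by a solid line) of the 57 tested members, by class, with bars showing the standard error and the class median dashed. Filled red points are H2bc4 and Hist1h2bq, the members past the threshold, and every point lies left of 0, with medians of -0.90 for H2A, -0.96 for H2B, -0.54 for H3 and -0.64 for H4.

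Among the 17 tested H2A members, 0 passed in edgeR, 14 were lower at an unadjusted p under 0.05 (11.5% of all genes), and the median was -0.90. DESeq2 called 9 lower (4.31% of all genes) and limma voom 0. H2ac19 encodes a core H2A of the Hist2 cluster (chr3:96239749-96240276). It had 172, 522, 261, 458 and 545 CPM in α-KG 1 to 5 and 691, 683, 435, 669.8 and 893 CPM in water 1 to 5. α-KG 2, 4 and 5 lay above water 3 and below the other water libraries, and the log2 fold change was -0.78 ± 0.32 (SE; edgeR adjusted p = 0.144). Since its near-identical neighbour H2ac18 shares its reads, the sum of both is the firmer value. That sum was 419.8 ± 174 CPM with α-KG and 728 ± 183 CPM with water (SD, n = 5 each), again with overlap through water 3.

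Hist1h2ap, a core H2A of the first Hist1 block (chr13:21833026-21833507), had 109, 352, 199, 316 and 362 CPM in α-KG 1 to 5 and 572, 439, 284, 549 and 721 CPM in water 1 to 5. Its log2 fold change was -0.94 ± 0.34 (SE; edgeR adjusted p = 0.109). H2ac10 averaged 164 ± 68.6 CPM with α-KG and 306 ± 78.8 CPM with water. H2ac4 averaged 181 ± 86.6 CPM and 308 ± 91.2 CPM. Both are core H2A copies of the second Hist1 block. None of the 3 passed the edgeR test. Chosen after the values were seen, H2ac7 was the H2A member whose groups did not overlap. It had 6.82 to 17.0 CPM with α-KG and 17.8 to 41.3 CPM with water, with a log2 fold change of -1.11 ± 0.29 (SE; edgeR adjusted p = 0.0603). Over all members, 3 had lower groups that did not overlap (H2ac7, H2bc4 and H2bc1), and 2.02% of all genes tested did. Among the 55 members above the cutoff of the low-count filter in every library, 2 did, H2ac7 and H2bc4.

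Of the 17 H2B members, 2 fell in edgeR (0.344% of all genes) and 16 were lower at an unadjusted p under 0.05 (11.5% of all genes). H2bc15, a core H2B of the first Hist1 block (chr13:21754123-21754503), had 33.3, 139.6, 54.8, 126 and 117 CPM in α-KG 1 to 5. In water 1 to 5 it had 280.2, 166, 106, 209 and 267 CPM. Water 3 again lay inside the α-KG range, and the log2 fold change was -1.13 ± 0.39 (SE; edgeR adjusted p = 0.103). H2bc8, whose octamer promoter is printed above (chr13:23571396-23572013), had 75.2, 200.3, 93.0, 170.1 and 160.2 CPM in α-KG 1 to 5. Its water values were 337, 209, 146, 255 and 351 CPM, with 3 α-KG libraries above water 3. The log2 fold change was -0.89 ± 0.31 (SE; edgeR adjusted p = 0.101).

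H2bc11 and H2bc3 are further core H2B copies. H2bc11 averaged 101 ± 29.7 CPM with α-KG and 195 ± 67.9 CPM with water, and H2bc3 117 ± 47.3 CPM and 215 ± 76.7 CPM (SD, n = 5 each). Neither passed in edgeR, with adjusted p of 0.0702 and 0.116. Chosen after its values were seen, H2bc1 encodes the testis H2B variant (TH2B) and had the lowest log2 fold change of the members. Its levels of 0.0622 to 0.953 CPM with α-KG and 1.02 to 2.19 CPM with water rest on 2 to 71 counts a library, and its edgeR adjusted p was 0.0577. Its divergent neighbour H2ac1, which encodes testis H2A, was listed at 0 throughout.

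H3 had the median nearest to 0, at -0.54. Of the 11 tested, 0 passed in edgeR, DESeq2 or limma voom, and 1 had an unadjusted p under 0.05 (H3c4, at -0.85, named after its value was seen). At that p 11.5% of all genes were lower, so H3 did not stand out by this count. H3c6, a core H3 of the second Hist1 block (chr13:23561534-23562369), had 121, 346, 172, 299.8 and 410.4 CPM in α-KG 1 to 5 and 413, 338, 206, 376 and 504 CPM in water 1 to 5. α-KG 2, 4 and 5 lay above water 3, α-KG 2 also above water 2, and α-KG 5 above 3 of the 5 water libraries. The log2 fold change was -0.45 ± 0.33 (SE; edgeR adjusted p = 0.387). H3c13 in the Hist2 cluster (chr3:96268654-96269141), which encodes H3.2, had 165, 395, 224, 390.0 and 511 CPM in α-KG 1 to 5. Water 1 to 5 gave 469, 473, 322, 466 and 650.0 CPM. The groups overlapped widely, with a log2 fold change of -0.50 ± 0.30 (SE). H3c7 and H3c3 had log2 fold changes of -0.59 and -0.57, and neither passed. Of H3c14, listed at 0 in all libraries, every 100-base stretch occurs in other genes, so its zero does not show that the copy is silent.

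Of the 12 H4 members, 0 passed in edgeR and 6 were lower at an unadjusted p under 0.05 (11.5% of all genes). DESeq2 called 3 lower (4.31% of all genes) and limma voom 0. H4c4 (chr13:23581598-23582735) shares no 100-base stretch with another gene, but 10.2% of its 50-base stretches occur in other genes. Some of its count may therefore belong to other copies. It had 124, 319.5, 165, 226 and 270.2 CPM in α-KG 1 to 5 and 436, 309.9, 195, 346 and 508 CPM in water 1 to 5. α-KG 2, 4 and 5 lay above water 3, and α-KG 2 also above water 2. The log2 fold change was -0.70 ± 0.30 (SE; edgeR adjusted p = 0.155). H4c8 (chr13:23531050-23531519) had 111, 219, 126, 204 and 269.8 CPM in α-KG 1 to 5 and 328, 255, 169, 268 and 408 CPM in water 1 to 5. Its α-KG values reached into the water range in 3 libraries, and its log2 fold change was -0.62 ± 0.29 (SE). Hist1h4m and H4c6, further H4 copies, had log2 fold changes of -0.61 and -0.38, and neither passed.

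By cluster, the medians were -0.94 for the first Hist1 block (23 tested), -0.76 for the second (25) and -0.78 for Hist2 (9). The first block holds 8 H2A and 8 H2B but only 2 H3 members, and the second holds 6, 7 and 7. The ratio of Hist2 to Hist1 sums within a library was 0.225 to 0.235 with α-KG and 0.200 to 0.240 with water, so the share of the clusters overlapped between groups. Over the 16 members with under 20% shared 100-base stretches, of which 14 were tested, the median was -0.78. That share is taken over the annotated transcript, which can run far past the stem-loop. For H2ac6 it runs 2058 bases past the stop, with the stem-loop 32 bases after it. A low share therefore does not show that the coding part is free of shared stretches.

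The balance between the classes also differed between the groups. Ratios taken within a library do not depend on scaling between libraries. They were chosen after the values were seen and carry no test. The summed level of H2A and H2B over that of H3 and H4 was 0.704, 0.805, 0.769, 0.802 and 0.689 in α-KG 1 to 5. It was 0.941, 0.924, 0.954, 0.970 and 0.962 in water 1 to 5. The groups did not overlap, and water 3, which is low in every class, lay at the middle of the water values. The means were 0.754 ± 0.0546 with α-KG and 0.951 ± 0.0181 with water (SD, n = 5 each).

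H2A and H2B each stood lower against H3. H2A over H3 was 0.835, 0.963, 0.886, 0.870 and 0.798 in α-KG 1 to 5, against 1.01, 1.13, 1.07, 1.10 and 1.11 in water 1 to 5. H2B over H3 was 0.466, 0.486, 0.482, 0.473 and 0.352 in α-KG 1 to 5, against 0.659, 0.488, 0.574, 0.588 and 0.620 in water 1 to 5. Neither pair of groups overlapped, though water 2 stood only just above α-KG 2 for H2B. H4 over H3 was 0.670 to 0.849 with α-KG and 0.725 to 0.798 with water, and overlapped. H2B over H4 overlapped as well, at 0.526 to 0.701 with α-KG and 0.650 to 0.849 with water. H2A over H4 did not, at 0.984 to 1.29 with α-KG and 1.31 to 1.51 with water.

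**Figure D3:**
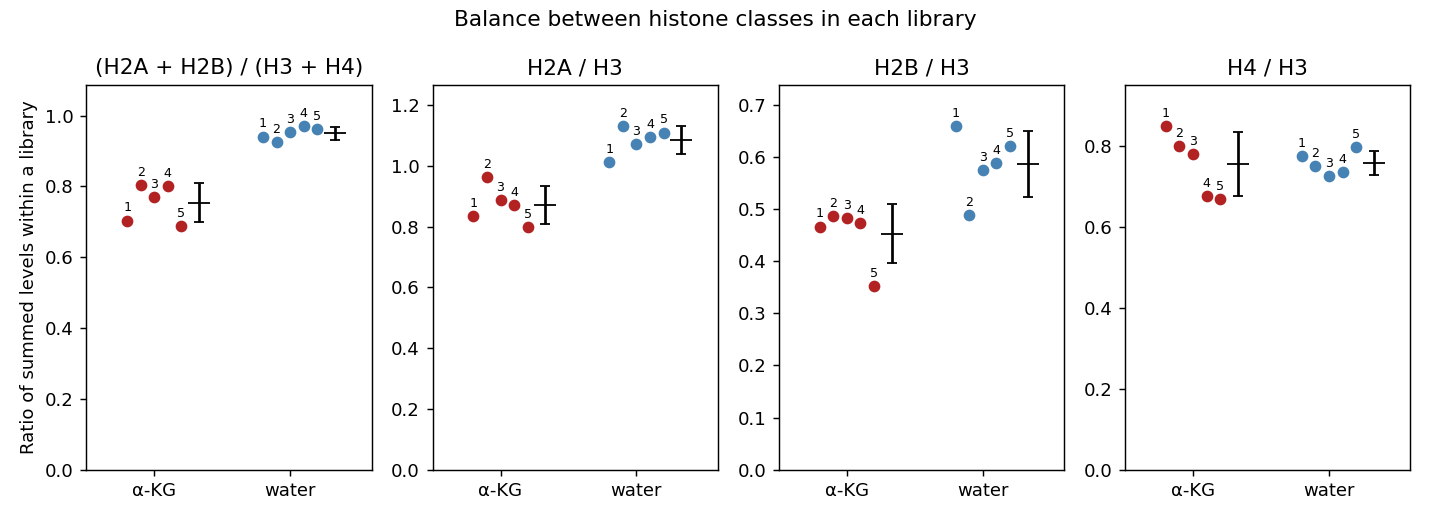
Ratios of summed CPM between classes within each library (vertical axes, from 0), with α-KG left of water, library numbers beside the points, and bars showing mean ± SD. For H2A and H2B over H3 and H4, the α-KG libraries lie at 0.689 to 0.805, all below the water libraries at 0.924 to 0.970, while H4 over H3 overlaps.

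The size of these ratios carries no meaning of its own, since CPM is not per length, and reads moved between members of 1 class leave its sum unchanged. Over the members with under 20% shared 100-base stretches (6 H2A, 4 H2B, 0 H3 and 6 H4), H2A and H2B over H4 was 0.483 to 0.675 with α-KG and 0.670 to 0.710 with water. The groups overlapped there by α-KG 4 against water 1. Over all members the same ratio was 1.53 to 1.99 with α-KG and 2.15 to 2.29 with water.

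Linker histone genes, which lie outside the choice of members, were not called. H1f1 to H1f5, the H1 genes of the Hist1 cluster, had log2 fold changes of -0.56 (H1f1) to -0.21 (H1f3), with 0 of 5 at an unadjusted p under 0.05 in edgeR and 0 called by DESeq2 or limma voom. Their sum was 2326 ± 1291 CPM with α-KG and 2906 ± 643 CPM with water (SD, n = 5 each), and H1 over H3 overlapped, at 0.918 to 1.33 with α-KG and 0.753 to 1.22 with water. H2aw, H2bu2 and H4f16, further core histone genes whose symbols the choice did not take, had log2 fold changes of -0.82, -1.21 and -0.71. edgeR called 0 of these 3, with 1 at an unadjusted p under 0.05. DESeq2 called 1 and limma voom 0.

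Histone mRNA depends on its own transcription and processing factors. Of 33 tested factors, edgeR called 0 in either direction, with 13 lower and 1 higher at an unadjusted p under 0.05. DESeq2 called 4 lower and limma voom 0. For this list and those below, 11.5% of all genes were lower and 16.3% higher at an unadjusted p under 0.05. In DESeq2, 4.31% of all genes were called lower and 6.07% higher. In edgeR these shares were 0.344% and 2.39%, and in limma voom 0.284% and 1.52%. The factors' median log2 fold change was -0.29, and 24 of 33 lay below 0. Slbp, which encodes the stem-loop binding protein, had 37.9, 82.7, 47.8, 66.1 and 62.1 CPM in α-KG 1 to 5 and 92.1, 94.8, 79.0, 94.1 and 110.4 CPM in water 1 to 5. Only α-KG 2 reached the water range. Its log2 fold change was -0.67 ± 0.19 (SE; edgeR adjusted p = 0.0707). Pou2f1, the Oct factor known at H2B octamers, averaged 28.6 ± 3.80 CPM with α-KG and 38.2 ± 2.19 CPM with water. Casp8ap2, which acts in stem-loop cleavage, averaged 22.1 ± 4.96 CPM and 31.5 ± 2.72 CPM (SD, n = 5 each). The groups of these 2 genes did not overlap, yet their edgeR adjusted p were 0.0659 and 0.0735. Over the 33 factors, 4 had lower groups that did not overlap, and 2.02% of all genes tested did.

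Chaperones escort new histones to DNA. Of 19 tested, 1 fell in edgeR (0.344% of all genes) and 0 rose. The 1 that fell was Asf1a, which carries H3 and H4 dimers. Asf1a had 8.64, 13.4, 9.13, 12.4 and 11.8 CPM in α-KG 1 to 5 and 17.0, 19.8, 13.9, 20.2 and 21.2 CPM in water 1 to 5, without overlap. Its log2 fold change was -0.73 ± 0.16 (SE; edgeR adjusted p = 0.0356). Chaf1b and Chaf1a, subunits of the CAF-1 complex that deposits H3 and H4 at replication forks, had log2 fold changes of -0.58 and -0.47, and neither passed. DESeq2 called 4 chaperones lower and limma voom 1, and the list's median was -0.35.

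Replacement histones are made also outside S phase, mostly from mRNAs with poly(A) tails. Of 10 tested, edgeR called 0, with 3 lower and 1 higher at an unadjusted p under 0.05, and the median was -0.30. DESeq2 called 1 lower and 1 higher, and limma voom 0. Macroh2a1, an H2A variant with a macro domain, averaged 100.1 ± 12.6 CPM with α-KG and 76.0 ± 7.95 CPM with water, a log2 fold change of 0.40 ± 0.13 (SE; edgeR adjusted p = 0.0933). Cenpa, the centromeric H3 variant, had a log2 fold change of -0.54, and H2az2, an H2A.Z gene, one of -0.35. Neither passed.

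S phase and mitotic genes varied in the same libraries as the histones. Of 24 S phase genes, edgeR called 0, 22 had an unadjusted p under 0.05, DESeq2 called 16 and limma voom 0. All 24 were below 0, with a median of -0.62. Their summed level was 915, 2028, 1051, 1449 and 1483 CPM in α-KG 1 to 5 and 2298, 1883, 1714, 2158 and 2772 CPM in water 1 to 5. As for the histones, α-KG 1 and α-KG 3 were lowest, and water 3 was the lowest water library. Pole, Tyms and Gins1, for a replicative polymerase, thymidylate synthesis and the replicative helicase, had log2 fold changes of -0.62, -0.78 and -0.68. Of 16 G2 and M phase genes, edgeR called 0, 16 had an unadjusted p under 0.05, DESeq2 called 11 and limma voom 0, with a median of -0.78. Cdk1, the mitotic kinase, Ccnb2, a cyclin B, and Tpx2, a spindle factor, had log2 fold changes of -0.81, -1.02 and -0.81.

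**Figure D4:**
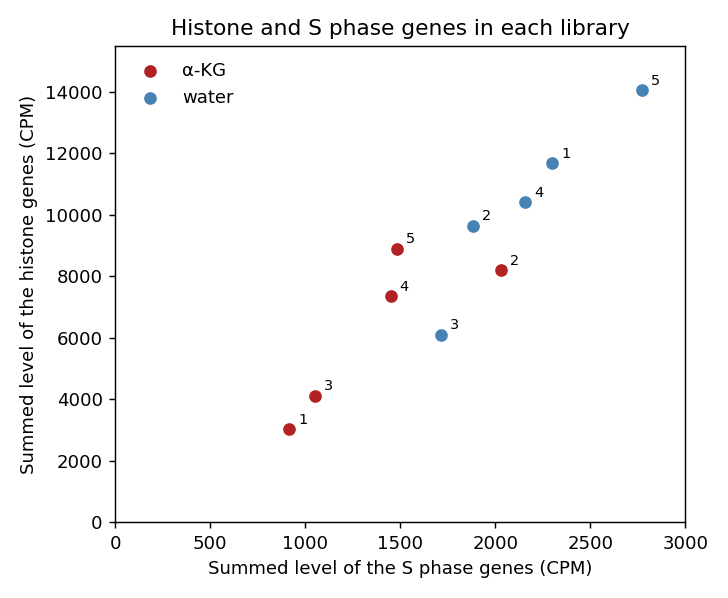
Summed CPM of the 60 histone members (vertical axis) against that of 24 S phase genes (horizontal axis), 1 point per library, α-KG red and water blue, with library numbers. α-KG 1 and α-KG 3 lie lowest on both axes, at 3024 and 4123 CPM of histones, and water 5 highest, at 14059.7 CPM.

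Set against the S phase list within each library, histone mRNA overlapped between the groups. The ratio of summed levels was 3.3 to 6.0 with α-KG and 3.56 to 5.13 with water. With the S phase list as a covariate, edgeR called 0 members (2 at an unadjusted p under 0.05, where 5.02% of all genes had one), 17 of 57 lay below 0, and the median was 0.11. No gene of the table was called in that fit.

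Markers of other cell types and structural RNAs moved with the groups too. Of 10 monocyte markers, 7 rose and 0 fell in edgeR, and their sum was 532 to 862 CPM with α-KG and 417 to 556 CPM with water. For comparison, edgeR called 2.39% of all genes higher and 0.344% lower, and limma voom called 1.52% higher. Of 10 macrophage markers, 4 rose, and their sums did not overlap, at 98.7 to 175 CPM with α-KG and 47.5 to 93.8 CPM with water. Of 8 T and NK cell markers, 2 rose (21.3 to 43.9 CPM with α-KG and 17.6 to 26.4 CPM with water), as did 2 of 5 tested stroma markers (46.4 to 106 CPM and 36.9 to 194 CPM). In stroma, 2 others were lower at an unadjusted p under 0.05, and DESeq2 called 2 lower. DESeq2 called 7 monocyte, 8 macrophage, 3 T and NK cell and 2 stroma markers higher, and limma voom 4, 4, 0 and 2, so the T and NK cell calls were lost in limma voom. Of the neutrophil (10), granulocyte precursor (6), erythroid (12), B lineage (8) and platelet (6) markers, edgeR called 0, with 0, 0, 1, 0 and 3 at an unadjusted p under 0.05. DESeq2 called 2 platelet markers and 0 of the other 4 lists, and limma voom called 0 of all 5. Their sums overlapped between the groups. The median log2 fold changes of these 5 lists, in the same order, were 0.07, -0.02, -0.56, 0.42 and 0.44. Of the 12 erythroid markers, 7 lay below 0 and 5 above, from -0.96 to 0.54. The erythroid sum had a log2 ratio of 0.27, the other way from the erythroid median. No marker was at 0 in all libraries, and Bglap was at 0 in some.

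The signal recognition particle RNAs Rn7s1 and Rn7s2 took 24.0 to 31.0% of counts with α-KG and 7.56 to 24.2% with water. With library sizes taken without these and 1 more structural RNA gene, edgeR again called 2 members and the median was -0.83. The members' share of all counts without those 3 genes was 0.567 to 1.23% with α-KG and 1.11 to 2.06% with water. The part of the cell type markers in the histone results was not tested.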

How the data were processed

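RNA of 10 bone marrow libraries, 5 from mice given α-KG and 5 from mice given regular water, was sequenced after ribosomal RNA removal, per the labels' protocols. The authors deposited 1 table of expected counts per gene, not scaled between libraries. bcl2fastq, DRAGEN and GRCm38 are named per the submitters' processing notes, while no source used here names the quantifier, its handling of reads shared by copies, or whether strand was used. Expected counts were rounded and filtered with filterByExpr (minimum count 10, minimum total 15), and 15126 genes were tested with edgeR 4.0.16 in R 4.3.3 (TMM, quasi-likelihood with robust dispersion, two-sided, Benjamini-Hochberg). The common biological coefficient of variation was 0.254. Standard errors are the absolute log2 fold change over the square root of F. The fit was tested on simulated data, where 72.2% of planted changes of 2 fold were recovered and 3.99% of calls were false. Genes were drawn independently there, so shifts that many genes of a library share were not tested.

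The members and lists were chosen with earlier results of these data known, so sums, ratios and medians over members carry no p. Named members are the 4 with the highest mean CPM in each class (the H1 class had 0) and those past the threshold, and named genes of the other lists are the 3 with the smallest unadjusted p, H1f1 to H1f5, H2aw, H2bu2 and H4f16 being added after the table's symbols were seen. Gene positions, transcripts and shared sequence came from GENCODE M21, with symbols matched through RefSeq synonyms (60 of 60 members). Alternatives were DESeq2 1.42.0, limma voom (limma 3.58.1), other scalings and filters, unrounded counts, an S phase covariate and each library left out.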

Additional observations from a re-analysis of the deposited data

Results flagged for a closer look

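Of 110 group values checked (5 libraries each, gap to the nearest value over the range above 0.71), 5 had a library that stood apart, and chance alone gives about 1 in 20. The ratio of summed H2B to summed H3 was 0.352 in α-KG 5, against 0.466 to 0.486 in α-KG 1 to 4. The ratio of all histone members to the S phase list was 3.56 in water 3, where the other water libraries had 4.82 to 5.13, so water 3 was low in histone mRNA also relative to its S phase genes. Casp8ap2, a factor of histone mRNA cleavage, had 36.2 CPM in water 5, where the other water libraries had 29.5 to 31.3 CPM. Macroh2a1, the macro-domain H2A variant, had 89.7 CPM in water 3, against 69.8 to 75.5 CPM in the other water libraries. Tpx2, a spindle factor, had 80.2 CPM in water 3, against 109 to 117 CPM in the other water libraries. Water 3 accounts for 3 of these 5 values.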

How the results depend on the processing

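The members called, 2 in edgeR, were 26 with DESeq2, 4 with upper-quartile scaling, 0 with the S phase covariate and 0 to 17 with 1 library left out, and 2 or 3 in the other 6 settings. The members' median log2 fold change kept its sign in 20 of 21 alternatives (-0.99 to -0.65 with 1 library left out), 2 of which, on shared sequence and on low values, were chosen after seeing the data. With the S phase covariate it was 0.11, and 0.0075 for H2A, 0.0079 for H2B, 0.29 for H3 and 0.19 for H4. In that fit Hist1h2ap was at 0.049, H2ac19 at 0.067, H2ac4 at 0.24, H2bc15 at 0.042, H2bc8 at 0.046, H2bc3 at 0.15, H3c3 at 0.29, H3c13 at 0.29, H3c7 at 0.40, H3c6 at 0.51, Hist1h4m at 0.38, H4c4 at 0.19, H4c8 at 0.19 and H4c6 at 0.45. The other named members stayed below 0 there, Hist1h2bq at -0.57, H2bc4 at -0.32, H2bc11 at -0.15 and H2ac10 at -0.03. The covariate differs between the groups, so that fit removes part of the contrast. H2bc4 and Hist1h2bq each lost the call in 8 of 19 alternatives, with adjusted p of 0.00139 and 0.000426 in DESeq2, and up to 0.982 and 0.952 in edgeR with the S phase covariate. The log2 ratio of summed CPM was -0.96 to -0.55 over its 14 alternatives. The causes of these differences were not tested. No paired analysis was possible because the groups share no label number that ties their libraries. Depth left H2bc1 on as few as 2 counts.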
